A study of Mus musculus with 48 samples.

Results

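The SLAM (signalling lymphocytic activation molecule) family receptors are cell-surface proteins of blood cells, and 8 of their genes were followed here in the livers of mice carrying a mutant LXRα or none. The genes are Slamf7, Slamf8, Slamf9, Slamf6, Cd48, Cd84, Cd244a and Ly9, found by the Ensembl identifier of the mouse symbol among the 55416 genes counted in every liver. They were chosen by their levels over the 6 genotype groups, with earlier results of these data known, so their differences between genotypes are given as a description. No p-value is given for a single member, and counts of members past a threshold stand beside the share of all genes and are not read as results. All 8 passed the filter on low counts, although Slamf6 and Cd244a rested on few reads in most livers. Slamf7 also had few in wild-type livers, 4 to 13 reads in DN:WT and 0 to 17 in KO:WT, and Slamf8 had 2 to 20 in KO:WT.

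RNA was measured in 48 livers of male mice fed a western diet, rich in fat and cholesterol, for 8 weeks from 8 to 16 weeks of age. In the knock-in study, mice made by genome editing on C57BL/6J carried LXRα p.W441R, a dominant-negative form, on no allele (DN:WT), on one allele (DN:HET) or on both (DN:HOM). In the knockout study, mice of a line first made on a mixed background and then backcrossed to C57BL/6 had both alleles of LXRα (KO:WT), one (KO:HET) or neither (KO:HOM). Each of the 6 groups held 8 livers, littermates came from crosses of heterozygotes, and the change was present in every cell of the animal. The studies were housed at separate sites, so the site and the allele cannot be told apart.

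Most SLAM family receptors bind a second copy of themselves on a neighbouring cell, whereas CD48, a lipid-anchored protein, is the ligand of 2B4, the product of Cd244a. The longer members carry tyrosine switch motifs in their tails, which recruit the small adaptors SAP and EAT-2 and, in their absence, phosphatases, while SLAMF8 and SLAMF9 have short tails without such a motif. In liver the family is known from macrophages, dendritic cells and lymphocytes rather than from hepatocytes. In whole liver RNA, more cells of a type and more RNA per cell cannot be told apart.

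Between 5332897 and 16961379 reads fell on genes in each liver, with 2 livers of the knockout study under 10000000. Nr1h3, which encodes LXRα, had a median of 93.9 CPM (counts per 1000000 reads) in DN:WT, 72.2 in DN:HOM, 90.2 in KO:WT, 59.7 in KO:HET and 26.4 CPM in KO:HOM livers. These reads were counted over the whole gene, the deleted part was not counted apart, and those in KO:HOM livers are no evidence of an intact transcript. The liver labelled DN:WT animal 10 had 71.3 CPM, inside the DN:HOM range of 68.5 to 77.4 CPM, and the liver labelled DN:HOM animal 12 had 86.9 CPM, inside the DN:WT range of 82.1 to 96.9 CPM. The study's source data on target genes of the bile acid receptor FXR hold neither of these livers, and its other data were not checked for them. Values refer to the other 46 livers unless all 48 are named. The members' fold changes in DN:HOM and the counts called in the lists are also given with both livers under their labels.

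The 8 genes lie within 1031 kb of chromosome 1 (GRCm39, positions 171386708 to 172418178). Cd244a, Ly9, Slamf7, Cd48, Cd84 and Slamf6 follow each other in this order, and Slamf9 and Slamf8 form a separate pair 516 kb further on. Ly9 lies inside the interval of Cd244a on the opposite strand without shared exonic bases. Annotated antisense RNAs overlap 423 exonic bases of Slamf7, 295 of Slamf6 and 321 and 392 of Slamf9, and the counts used here kept the strands apart.

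Start-site sequences of 7 of the 8 genes, from 250 bases before to 50 bases after the start, were taken from RefSeq on build GRCm38.p6, and that of Ly9 was not used here. Shown are Slamf7, which had the highest fold change in both studies, Slamf8 and Slamf9, and Cd84, the gene most ratios below are set against. The fold changes of Slamf8 and Slamf9 lay in opposite orders between the studies, within their standard errors in DN:HOM. They are printed 5′ to 3′ on the strand of the gene, with short motifs in capitals, to put the sequence next to the levels.
Slamf7: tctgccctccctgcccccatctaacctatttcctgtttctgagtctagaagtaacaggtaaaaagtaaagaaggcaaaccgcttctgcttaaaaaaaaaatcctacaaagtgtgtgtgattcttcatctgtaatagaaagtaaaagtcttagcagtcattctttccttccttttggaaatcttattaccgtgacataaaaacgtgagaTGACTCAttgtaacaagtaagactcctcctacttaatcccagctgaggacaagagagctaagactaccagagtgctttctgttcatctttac
Slamf8: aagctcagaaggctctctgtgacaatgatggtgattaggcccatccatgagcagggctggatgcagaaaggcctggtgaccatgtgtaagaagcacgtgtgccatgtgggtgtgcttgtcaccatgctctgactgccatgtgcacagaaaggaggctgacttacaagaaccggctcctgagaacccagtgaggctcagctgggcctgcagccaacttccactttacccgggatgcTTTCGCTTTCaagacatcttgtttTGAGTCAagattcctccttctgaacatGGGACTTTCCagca
Slamf9: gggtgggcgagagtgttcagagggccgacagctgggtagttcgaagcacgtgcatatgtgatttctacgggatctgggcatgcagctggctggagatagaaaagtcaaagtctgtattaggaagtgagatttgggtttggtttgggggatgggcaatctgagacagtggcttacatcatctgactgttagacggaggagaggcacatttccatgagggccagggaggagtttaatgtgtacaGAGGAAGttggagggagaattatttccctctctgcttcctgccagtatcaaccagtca
Cd84: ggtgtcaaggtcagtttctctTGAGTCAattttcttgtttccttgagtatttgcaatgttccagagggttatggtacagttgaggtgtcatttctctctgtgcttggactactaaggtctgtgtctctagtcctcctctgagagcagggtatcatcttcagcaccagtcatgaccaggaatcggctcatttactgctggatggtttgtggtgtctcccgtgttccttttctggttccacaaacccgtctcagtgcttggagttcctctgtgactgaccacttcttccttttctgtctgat
On GRCm38.p6 these windows are chr1:171648950-171649249 on the minus strand for Slamf7, chr1:172590519-172590818 on the minus strand for Slamf8, chr1:172475110-172475409 on the plus strand for Slamf9 and chr1:171839447-171839746 on the plus strand for Cd84. Both strands were searched for 5 motifs. The AP-1 motif TGANTCA began 42 bases before the start of Slamf7, 229 bases before that of Cd84 and at base 10 of Slamf8, and it stood in 7.81% of all 32851 promoters of this length. The PU.1-type motif GAGGAAG began 8 bases before the start of Slamf9 and stood in 13.6% of all promoters. Slamf8 also held the interferon-response core on the minus strand (GAAA, then any 2 bases, then GAAA again), which 3.44% of promoters had, and the NF-κB-type motif at base 37 (GGGA, any base, then TTTCC), which 0.411% had. None of these matches overlapped another. Cd244a had an AP-1 match 122 bases before its start, and the windows of Cd48 and Slamf6 held none of the letters searched. The LXR-type repeat, AGGTCA and AGGTCA with 4 bases between, was in no window of the 7 genes and in 0.0152% of all promoters. A match of letters is a description of the window and not a bound site.

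All 8 genes were higher in DN:HOM than in DN:WT livers, and no DN:HOM value of any of them fell within the DN:WT range. Of the 15711 genes tested with edgeR's quasi-likelihood test, 29.1% were called higher in this comparison and 17.8% had every DN:HOM value above every DN:WT value. All 8 were also called higher in KO:HOM than in KO:WT livers, where 11.5% of all genes were. The ranges of KO:HOM and KO:WT stayed apart for Ly9, Slamf7, Cd48 and Slamf8, and 2.18% of all genes had KO:HOM values wholly above KO:WT values. Because the choice of the genes used these contrasts, nothing is read from these counts. The median log2 fold change of the 8 genes was 2.53 in DN:HOM, against -0.01 over all tested genes, and 2.23 in KO:HOM, against -0.02.

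**Figure D1:**
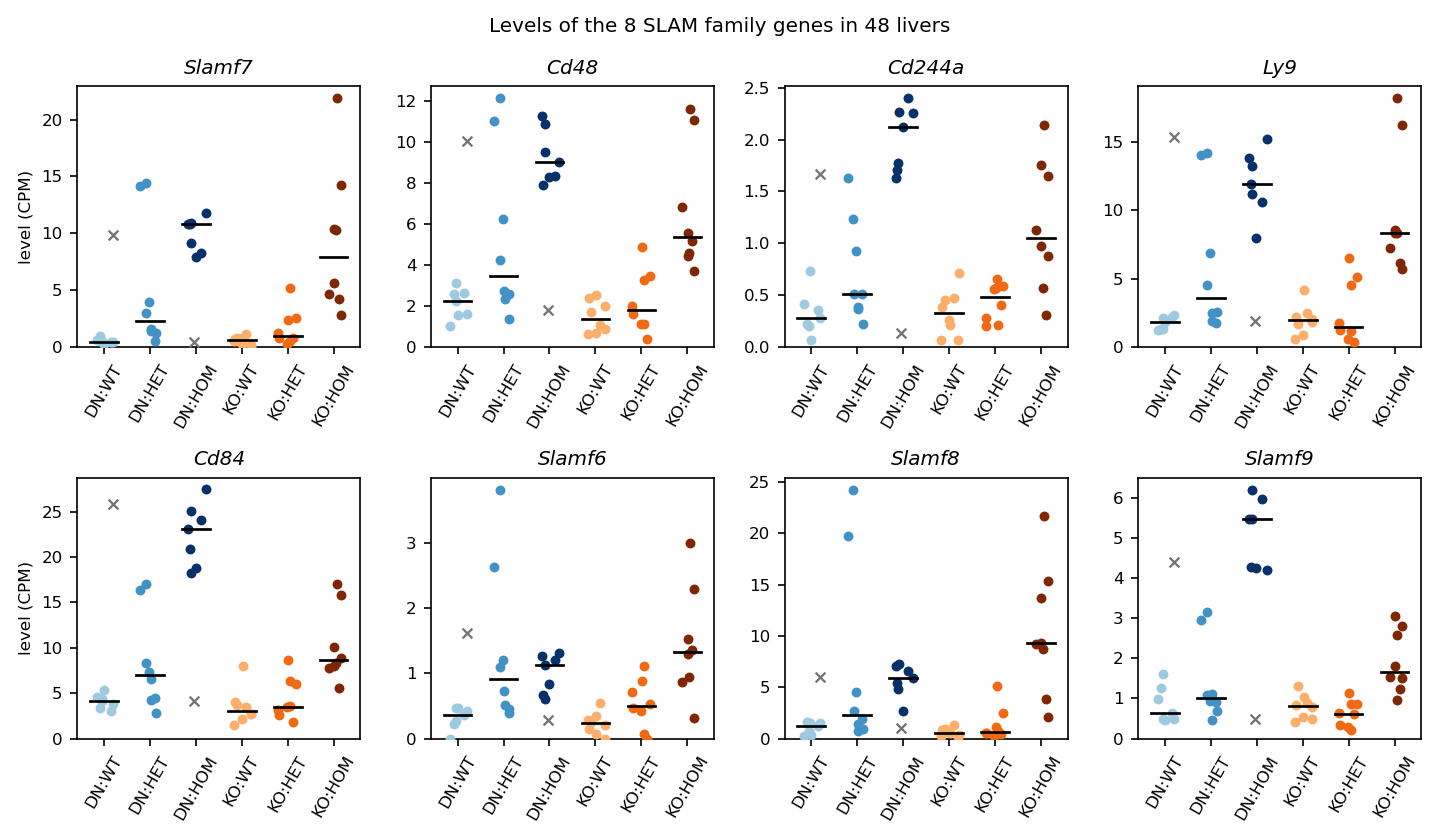
Levels in CPM (vertical axes, linear from 0) of the 8 genes in each liver of the 6 groups. Dots are livers, black lines are medians over the 46 livers, and grey crosses are DN:WT animal 10 and DN:HOM animal 12. The DN:HOM dots of Cd84 sit between 18.3 and 27.5 CPM, above all dots of the other groups.

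Cd48 and Cd244a encode the ligand and the receptor of one pair. Cd48 ran from 1.04 to 3.14 CPM in DN:WT (median 2.25) and from 7.91 to 11.3 CPM in DN:HOM livers (median 8.99). In the knockout study it ran from 0.625 to 2.51 CPM in KO:WT (median 1.38) and from 3.72 to 11.6 CPM in KO:HOM livers (median 5.37). The homozygous and wild-type groups did not overlap in either study, and the log2 fold changes were 2.14 (SE 0.39) in DN:HOM, or 1.41 (SE 0.42) with all 48 livers, and 2.17 (SE 0.38) in KO:HOM. Cd244a, the receptor, was much scarcer. It ran from 0.067 to 0.734 CPM in DN:WT (median 0.283) and from 1.63 to 2.40 CPM in DN:HOM livers (median 2.12), a log2 fold change of 2.61 (SE 0.40). In KO:WT livers it ran from 0.069 to 0.718 CPM (median 0.324) and in KO:HOM from 0.309 to 2.14 CPM (median 1.05), a log2 fold change of 1.84 (SE 0.39). The DN groups were apart and the KO groups overlapped. In the KO:HOM liver with the fewest reads, animal 17, the Cd244a value was 3 reads.

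Slamf7, Ly9, Cd84 and Slamf6 encode receptors that bind themselves and signal through the adaptors. Slamf7, also called CRACC, is carried by natural killer cells, plasma cells and activated macrophages. It ran from 0.270 to 0.962 CPM in DN:WT (median 0.428) and from 7.89 to 11.8 CPM in DN:HOM livers (median 10.8). In KO:WT livers it ran from 0 to 1.14 CPM (median 0.623) and in KO:HOM from 2.84 to 21.9 CPM (median 7.95). The liver at 0, KO:WT animal 32, allows up to 0.216 CPM, the worth of 3 reads. The groups were apart in both studies, and the log2 fold changes of 4.25 (SE 0.63) and 4.05 (SE 0.59) were the largest among the 8 genes in each study, with Slamf8 close behind in KO:HOM at 4.04 (SE 0.65). The wild-type levels they are set against rested on few reads, so the size of these fold changes is imprecise. The highest DN:HOM value of Slamf7 was 1.49 times the lowest, or 28.1 times with animal 12 included, and the highest KO:HOM value was 7.71 times the lowest.

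Ly9, a receptor of lymphocytes and some macrophages, ran from 1.25 to 2.33 CPM in DN:WT (median 1.82) and from 7.94 to 15.2 CPM in DN:HOM livers (median 11.9). In KO:WT it ran from 0.556 to 4.18 CPM (median 1.97) and in KO:HOM from 5.73 to 18.2 CPM (median 8.33). Both pairs of groups were apart, with log2 fold changes of 2.77 (SE 0.46) and 2.30 (SE 0.43). Cd84, carried by macrophages, mast cells, platelets and B cells among others, ran from 3.07 to 5.33 CPM in DN:WT (median 4.16) and from 18.3 to 27.5 CPM in DN:HOM livers (median 23.04). In KO:WT it ran from 1.53 to 7.95 CPM (median 3.06) and in KO:HOM from 5.62 to 17.1 CPM (median 8.62). Cd84 in DN:HOM was above every value of the other 5 groups, while KO:HOM and KO:WT overlapped because of KO:WT animal 14. The log2 fold changes were 2.46 (SE 0.32) in DN:HOM and 1.54 (SE 0.31) in KO:HOM.

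Slamf6, also called Ly108, is best known from T cells and natural killer cells. It ran from 0 to 0.472 CPM in DN:WT (median 0.357) and from 0.613 to 1.31 CPM in DN:HOM livers (median 1.13). In KO:WT it ran from 0 to 0.538 CPM (median 0.233) and in KO:HOM from 0.315 to 3.0 CPM (median 1.33). Slamf6 had 0 reads in DN:WT animal 7, KO:WT animal 32 and KO:HET animal 3, which allows up to 0.209, 0.216 and 0.604 CPM. The DN groups were apart, the KO groups overlapped, and the log2 fold changes were 1.65 (SE 0.52) and 2.62 (SE 0.51). Slamf6 had the smallest fold change of the 8 genes in DN:HOM and the third highest in KO:HOM.

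Slamf8 and Slamf9 encode the short-tailed members. SLAMF8 is a macrophage protein known to restrain the phagocyte NADPH oxidase, and SLAMF9 is known from macrophages and dendritic cells. Slamf8 ran from 0.278 to 1.63 CPM in DN:WT (median 1.21) and from 2.66 to 7.31 CPM in DN:HOM livers (median 5.92). In KO:WT it ran from 0.138 to 1.35 CPM (median 0.578) and in KO:HOM from 2.08 to 21.7 CPM (median 9.27). Both pairs of groups were apart, and the log2 fold change was 2.46 (SE 0.65) in DN:HOM and 4.04 (SE 0.65) in KO:HOM. Slamf9 had the opposite order. It ran from 0.472 to 1.60 CPM in DN:WT (median 0.643) and from 4.20 to 6.20 CPM in DN:HOM livers (median 5.47), a log2 fold change of 2.60 (SE 0.34). In KO:WT it ran from 0.417 to 1.303 CPM (median 0.817) and in KO:HOM from 0.950 to 3.04 CPM (median 1.67), a log2 fold change of 1.31 (SE 0.33). Every DN:HOM value of Slamf9 was above every KO:HOM value, and the KO:HOM and KO:WT ranges overlapped.

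**Figure D2:**
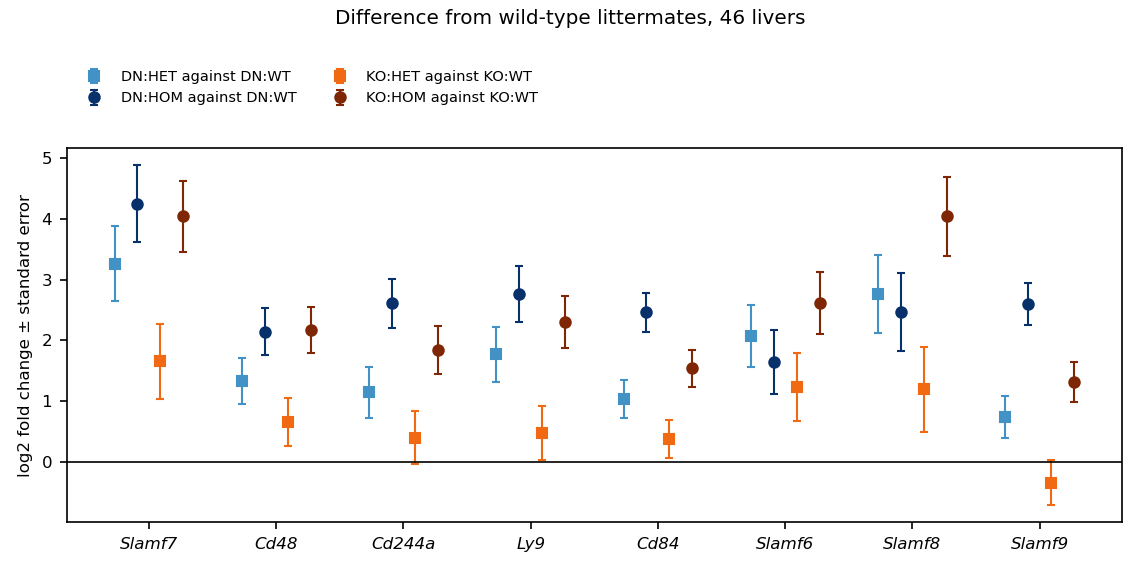
Log2 fold change (vertical axis) of each gene in heterozygous (squares) and homozygous (circles) livers against the wild-type livers of the same study, with bars of 1 standard error, over 46 livers. Slamf7 is the highest circle in both studies, with Slamf8 close behind in KO:HOM. Slamf8 and Slamf9 lie in opposite orders between the studies, within their standard errors in DN:HOM.

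The difference of the homozygous effects, DN minus KO, spanned -1.58 (SE 0.92) for Slamf8 to 1.28 (SE 0.48) for Slamf9 on the log2 scale. It was 0.92 (SE 0.44) for Cd84, 0.77 (SE 0.58) for Cd244a, 0.46 (SE 0.62) for Ly9, 0.21 (SE 0.88) for Slamf7, -0.02 (SE 0.50) for Cd48 and -0.97 (SE 0.76) for Slamf6. For Ly9, Slamf7 and Cd48 it was smaller in size than its standard error. Slamf9 was the 1 member called, where 34.7% of all genes were called in either direction. These differences depended on the 2 livers left out. With all 48 livers the sign turned for Slamf7, at -1.73 (SE 0.98), Ly9, at -0.70 (SE 0.72), and Cd244a, at -0.05 (SE 0.55). The others were then 0.47 (SE 0.60) for Slamf9, 0.01 (SE 0.66) for Cd84, -0.76 (SE 0.60) for Cd48, -1.74 (SE 0.76) for Slamf6 and -2.45 (SE 0.92) for Slamf8, and the median of the 8 went from 0.34 to -0.73. Called by edgeR were 0 of the 8, with 2 lower at an unadjusted p under 0.05, where 10.5% of all genes were called.

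Ratios between members within a liver depend on the library's depth in their precision only, and not on its scaling. Slamf8 over Cd84 in CPM ran from 0.141 to 0.399 in DN:HOM (median 0.261) and from 0.234 to 1.35 in KO:HOM livers (median 1.103). The lowest KO:HOM ratio, of animal 22, lay inside the DN:HOM range, and the other 7 KO:HOM livers started at 0.681. In wild-type livers the ratio ran from 0.061 to 0.478 in DN:WT and from 0.051 to 0.392 in KO:WT. Slamf9 over Slamf8 ran from 0.710 to 1.59 in DN:HOM (median 0.783) and from 0.109 to 0.727 in KO:HOM livers (median 0.188), with animal 22 again the only KO:HOM liver inside the DN:HOM range. The ratio of Slamf9 to Slamf8 in KO:WT was between 0.650 and 3.50, where the few reads of both genes make it imprecise. Slamf6 over Cd84 ran from 0.032 to 0.055 in DN:HOM (median 0.045) and from 0.035 to 0.242 in KO:HOM livers (median 0.147). The heterozygous DN:HET livers lay at 0.078 to 0.223, above the whole DN:HOM range. The wild-type ratios ran from 0 to 0.116 in DN:WT (median 0.089, also above the DN:HOM range). In KO:WT they ran from 0 to 0.182 (median 0.057), and few reads of Slamf6 make them imprecise. Slamf9 over Cd84 differed less, with medians of 0.237 in DN:HOM and 0.186 in KO:HOM livers and overlapping ranges. Ly9 over Cd84 ran from 0.421 to 0.611 in DN:HOM and from 0.645 to 1.09 in KO:HOM livers, with the ranges apart. In wild-type livers it ran from 0.273 to 0.721 in DN:WT (median 0.391) and from 0.364 to 0.784 in KO:WT (median 0.537). The DN:HOM and KO:HOM medians over Cd84 were 0.433 and 0.829 for Slamf7, 0.433 and 0.613 for Cd48 and 0.082 and 0.113 for Cd244a. The ranges of these genes overlapped. The liver labelled DN:HOM animal 12 had 0.237 of Slamf8 over Cd84, inside the DN:HOM range, 0.50 of Slamf9 over Slamf8, below it, and 0.068 of Slamf6 over Cd84, above it.

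**Figure D3:**
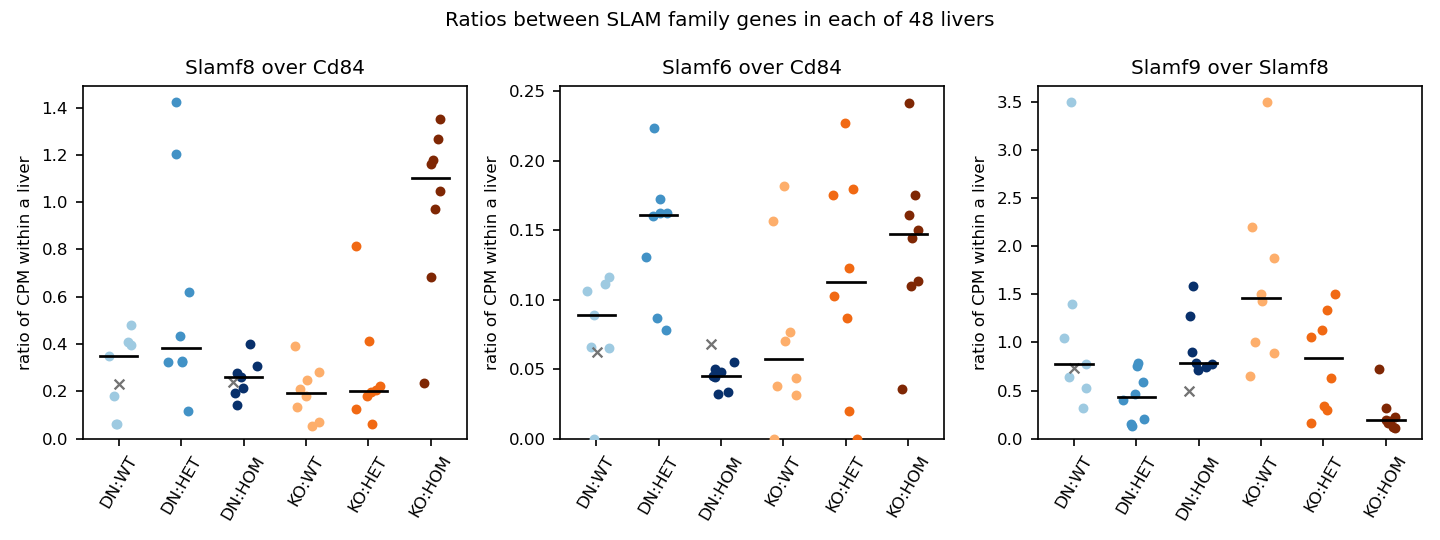
Ratios of CPM within each liver (vertical axes, linear from 0) for Slamf8 over Cd84, Slamf6 over Cd84 and Slamf9 over Slamf8 by group, with medians over the 46 livers as black lines and DN:WT animal 10 and DN:HOM animal 12 as grey crosses. The DN:HOM dots of Slamf8 over Cd84 end at 0.399 and 7 of the 8 KO:HOM dots start at 0.681.

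Levels of different members can be compared only per length. Per kb of the canonical transcript, the DN:HOM medians were 13.2 CPM for Cd84, 7.54 for Cd48, 6.71 for Slamf7, 4.74 for Ly9, 3.92 for Slamf9, 3.57 for Slamf8, 0.561 for Cd244a and 0.197 CPM for Slamf6. Per kb of all annotated exons Cd48 came first at 6.23 CPM and Ly9 was next at 3.58 CPM, ahead of Cd84 at 2.87 CPM, so the order at the top rests on the length used. Cd244a and Slamf6 were the lowest by either length in DN:WT, DN:HOM, KO:WT, KO:HET, KO:HOM and DN:HET livers. In KO:HOM livers Slamf8 was first per kb of the canonical transcript at 5.59 CPM and Slamf9 was the sixth at 1.20 CPM.

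The DN:HET medians lay between those of DN:WT and DN:HOM for all 8 members, with a wide spread between livers. The log2 fold changes in DN:HET against DN:WT ran from 0.74 (SE 0.35) for Slamf9 to 3.27 (SE 0.62) for Slamf7, and Ly9, Slamf6, Slamf7 and Slamf8 were called, where 2.23% of all genes were called higher. With all 48 livers they ran from 0.10 (SE 0.42) for Slamf9 to 2.05 (SE 0.62) for Slamf8, with Slamf7 at 1.52 (SE 0.66). The calls also depended on 2 DN:HET livers. DN:HET animal 4 had 19.7 CPM of Slamf8 and animal 22 had 24.2 CPM, whereas the other 6 DN:HET livers had between 0.775 and 4.59 CPM. Both livers were above every DN:HOM liver for Slamf8, Slamf7 and Slamf6, and below every DN:HOM liver for Cd84 and Slamf9. Slamf7 was 14.1 CPM in animal 4 and 14.4 CPM in animal 22, and Cd84 was 16.4 and 17.04 CPM. Their ratios of Slamf8 over Cd84 were 1.20, inside the KO:HOM range, and 1.42, above it, and both lay above the DN:HOM range. Without animals 4 and 22 the log2 fold changes ran from 0.02 (SE 0.33) for Slamf9 to 1.90 (SE 0.56) for Slamf7, and 0 of the 8 members were called by edgeR, with 3 at an unadjusted p under 0.05. Of all 15849 genes tested in that fit 2 were called, which is 0.0126%. DESeq2 called 6 of the 8 members in DN:HET with both animals included, where it called 617 of all 15711 genes in either direction.

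In the KO:HET livers, log2 fold changes ran from -0.35 (SE 0.37) for Slamf9 to 1.65 (SE 0.62) for Slamf7, and all 8 members overlapped with KO:WT. Called were 0 of 8 by edgeR, with 2 at an unadjusted p under 0.05, where 0.0127% of all genes were called higher. DESeq2 also called 0 of 8, where it called 10 of all 15711 genes in either direction. KO:HET animal 4 had the highest values of Slamf7 and Slamf8 in its group, 5.16 CPM for each, and a ratio of Slamf8 over Cd84 of 0.814.

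The order of the 6 groups by median was not the same for all members. For Slamf7, Ly9, Cd48, Cd84, Cd244a and Slamf9 it was DN:HOM, KO:HOM, DN:HET and then the other 3 groups, and for Slamf8 and Slamf6 KO:HOM came before DN:HOM. Neighbours in this order had overlapping ranges throughout, except that DN:HOM was wholly above KO:HOM for Cd84 and Slamf9. The share of all genes with DN:HOM wholly above KO:HOM was not counted, so nothing is read from this. Within KO:HOM the livers of animals 8 and 11 were high for most members, with 18.2 and 16.2 CPM of Ly9, 17.1 and 15.8 CPM of Cd84 and 21.7 and 15.4 CPM of Slamf8. Slamf9 was at 2.57 and 2.80 CPM in them, below only the 3.04 CPM of animal 26.

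With both livers under their labels, DN:HOM and DN:WT overlapped for all 8 members, since animal 10 had 9.82 CPM of Slamf7 and 25.9 CPM of Cd84 and animal 12 had 0.42 and 4.13 CPM. The log2 fold changes in DN:HOM then ran from 0.88 (SE 0.51) for Slamf6 to 2.31 (SE 0.66) for Slamf7. They were 1.79 (SE 0.44) for Cd244a, 1.78 (SE 0.41) for Slamf9, 1.60 (SE 0.51) for Ly9, 1.59 (SE 0.62) for Slamf8, 1.55 (SE 0.39) for Cd84 and 1.41 (SE 0.42) for Cd48. Called were 7 of the 8 members, all but Slamf6, where 23% of all genes were called higher. In KO:HOM, 8 of the 8 were called, with 8.79% of all genes called higher, and in DN:HET 0 of 8 by edgeR, with 3 at an unadjusted p under 0.05 and 0.25% of all genes called higher.

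Across the 46 livers, with the mean of each group removed, the 28 pairs of members had Pearson correlations of log2 CPM between 0.31 and 0.90, with a median of 0.68, and Spearman correlations between 0.37 and 0.84. The highest Pearson correlation was between Ly9 and Cd48 and the lowest between Cd244a and Slamf6. Without the 2 livers farthest from the median of Ly9 the first was 0.87, and without the 2 farthest in Cd244a the second was 0.29. Slamf7 and Slamf8, which lie on opposite sides of the centre of the interval, had 0.82, and Cd244a and Ly9, which overlap, had 0.53. Within a liver all genes share their library and depth, and the values are a description.

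For each member the 3 genes most like it were sought over the same livers and centred values, among 13243 tested genes with a mean of at least 1 CPM. Slamf8 was most like H2-Ab1, H2-Eb1 and Irf8, with r of 0.91 for each (0.87 without the 2 livers farthest for Slamf8). H2-Ab1 and H2-Eb1 encode class II antigen-presenting chains, and Irf8 a transcription factor of macrophages and dendritic cells. Slamf7 was most like Nlrp3, an inflammasome sensor (r = 0.89), H2-Aa, another class II chain (r = 0.89), and Ctss, the protease cathepsin S (r = 0.88). For Slamf9 the genes were Lgals3, which encodes the macrophage lectin galectin-3 (r = 0.85), Trim30a (r = 0.85) and Plac8 (r = 0.84), and for Cd84 they were Dock2 (r = 0.88), Lyz2, the lysozyme of phagocytes (r = 0.87), and Axl, a receptor for dead cells (r = 0.87). Cd48 was most like Clec12a (r = 0.92), Sirpa (r = 0.91) and Aoah (r = 0.90), and Ly9 was most like Sirpa (r = 0.92), Ptprc, the common leukocyte antigen CD45 (r = 0.90), and Cyth4 (r = 0.90). Slamf6 was most like Hmgb2 (r = 0.82), Cd3g, a chain of the T cell receptor complex (r = 0.81), and Arhgef2 (r = 0.80). Cd244a, the scarcest with Slamf6, was most like Laptm5 (r = 0.78), Myo1g (r = 0.77) and Ppp1r18 (r = 0.77). Over all 48 livers the correlations with the same genes ran from 0.70 for Slamf9 with Trim30a to 0.94 for Cd48 with Clec12a. No p-value is given for these correlations, since each gene was picked as the highest of many.

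Of 43 tested leukocyte markers, 24 were called higher and 8 lower in DN:HOM, where 29.1% of all genes were called higher and 30% lower, and 24 higher and 4 lower in KO:HOM, where 11.5% were called higher and 7.87% lower. Ptprc had a median of 12.3 CPM in DN:WT, 39.5 in DN:HOM, 10.98 in KO:WT and 36.5 CPM in KO:HOM livers, and was called higher in both homozygous groups. The 7 macrophage and monocyte markers summed to 73.5 to 144 CPM in DN:WT and 789 to 1264 CPM in DN:HOM, and to 50.6 to 154 CPM in KO:WT and 213 to 959 CPM in KO:HOM livers, with 6 of the 7 called higher in each study. The 6 markers of resident Kupffer cells, the macrophages that line the liver's sinusoids, went the other way, from 140 to 268 CPM in DN:WT to 1.71 to 3.50 CPM in DN:HOM, with 6 of 6 called lower, and from 82.7 to 305 CPM in KO:WT to 22.7 to 69.1 CPM in KO:HOM, with 4 of 6 called lower. The 4 lipid-associated macrophage markers summed to 900 to 1361 CPM in DN:HOM and 66.9 to 248 CPM in KO:HOM livers, against 34.3 to 85.1 CPM in DN:WT and 27.4 to 111 CPM in KO:WT, with 4 and 3 called higher. Over all 48 livers 5 macrophage and monocyte markers were called higher in DN:HOM and 6 in KO:HOM, 6 and 3 Kupffer markers lower, and 4 and 1 lipid-associated macrophage markers higher, where 23% of all genes were called higher and 25% lower in DN:HOM and 8.79% higher and 4.12% lower in KO:HOM. The liver labelled DN:WT animal 10 had 1269 CPM of macrophage and monocyte markers and 3.24 CPM of Kupffer markers, and DN:HOM animal 12 had 82.4 and 159.9 CPM. The part of these cells in the members' differences was not tested.

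As in the comparisons above, 29.1% of all genes were called higher and 30% lower in DN:HOM, and 11.5% and 7.87% in KO:HOM. The 6 T cell markers summed to 1.81 to 4.0 CPM in DN:WT, 3.50 to 6.45 CPM in DN:HOM, 1.86 to 5.18 CPM in KO:WT and 5.73 to 22.7 CPM in KO:HOM livers, with 4 of 6 called higher in DN:HOM and 6 of 6 in KO:HOM. Over all 48 livers 1 of the 6 was called higher in DN:HOM and 6 in KO:HOM. Natural killer markers, of which 3 of 6 passed the filter, had 1 called higher in each study, a share near that of all genes in DN:HOM, and 3 of the dendritic cell markers were called higher in DN:HOM and 4 in KO:HOM, of 5 tested. Of 5 B cell markers 2 were called lower in DN:HOM, again near the share of all genes, and 0 in KO:HOM, also at an unadjusted p under 0.05 and by DESeq2. Of the 2 plasma cell markers tested, 1 was called higher in DN:HOM and 0 in KO:HOM by edgeR, by DESeq2 and at an unadjusted p under 0.05, and Tnfrsf17 had 0 reads in all wild-type livers. Neutrophil markers were called higher in 4 of 4 tested in DN:HOM and 3 of 4 in KO:HOM, with Ly6g at 0 reads in all wild-type and heterozygous livers. Of the 5 hepatocyte markers 4 were called lower in each homozygous group, and their sum ran from 28527 to 38631 CPM in DN:HOM against 58667 to 76022 CPM in DN:WT. Over all 48 livers the calls in DN:HOM and KO:HOM were 3 and 2 for dendritic cell markers, 3 and 1 for neutrophil markers and 4 and 2 for hepatocyte markers. In DN:HOM edgeR then called 0 B cell markers, with 2 lower at an unadjusted p under 0.05, and 0 natural killer and 0 plasma cell markers, with 0 at an unadjusted p under 0.05, while 1 natural killer marker was called in KO:HOM.

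In DN:HET animals 4 and 22, the livers high in Slamf8, the macrophage and monocyte markers summed to 800 and 841 CPM, inside the DN:HOM range, and the T cell markers to 21.6 and 25.1 CPM, above it. Their Kupffer markers summed to 574 and 621 CPM, far above the 1.71 to 3.50 CPM of DN:HOM, and their lipid-associated macrophage markers to 196 and 252 CPM, below the DN:HOM range. KO:HOM animal 22, the liver with the low ratio of Slamf8 to Cd84, had 213 CPM of macrophage and monocyte markers and 5.73 CPM of T cell markers, the lowest sums of its group. Whether these cells set the ratios was not tested.

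The genes that carry the family's signals were followed as a list of 29 genes, of which 26 passed the filter. In DN:HOM 16 rose and 2 fell, where 29.1% of all genes were called higher and 30% lower, and the median log2 fold change of the list was 1.39 against -0.01 over all tested genes. In KO:HOM 17 rose and 0 fell, also 0 by DESeq2 and 1 at an unadjusted p under 0.05, where 11.5% of all genes were called higher and 7.87% lower, and the list's median was 1.62 against -0.02. With all 48 livers 16 rose and 1 fell in DN:HOM and 17 rose in KO:HOM. Slamf1, Sh2d1a and Sh2d1b2 had too few reads to be tested, so SAP, the adaptor of T and natural killer cells, could not be followed. These counts include Sh2d1b1, which passed the filter on low counts through the homozygous livers, so nothing is read from its calls. The list was drawn up with earlier results of these data known.

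Among the adaptors, Sh2d1b1, which encodes EAT-2, had a median of 0.071 CPM in DN:WT and 2.03 CPM in DN:HOM livers and of 0.135 CPM in KO:WT and 0.963 CPM in KO:HOM livers. Its log2 fold change was 3.88 (SE 0.51) in DN:HOM and 3.12 (SE 0.50) in KO:HOM. In wild-type and heterozygous livers it reached at most 0.688 CPM, so it passed the filter on low counts through the homozygous livers. These fold changes are therefore imprecise, and they are a description given without a p-value. All values of each homozygous group were above those of the wild-type livers. Of the Src kinases, Lyn and Fgr of myeloid cells rose in both groups. Lck, the kinase of T cells, rose by 2.27 (SE 0.47) in KO:HOM, and its value in DN:HOM was 0.67 (SE 0.48, edgeR adjusted p = 0.23). Cd2, which encodes another receptor for CD48 on T cells, rose by 2.68 (SE 0.53) in KO:HOM, with 1.17 (SE 0.57, adjusted p = 0.072) in DN:HOM. The difference between the homozygous effects was not called for either gene, with -1.60 (SE 0.68, adjusted p = 0.062) for Lck and -1.51 (SE 0.80, adjusted p = 0.14) for Cd2.

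The phagocyte NADPH oxidase, the enzyme SLAMF8 is known to restrain and SLAMF1 to assist, was followed by 4 of its subunit genes. Cybb, Cyba, Ncf1 and Ncf4 were all called higher in both homozygous groups. Of all genes 29.1% were called higher in DN:HOM and 11.5% in KO:HOM. Cybb, the catalytic subunit, went from a median of 13.5 to 140 CPM in the knock-in study and from 9.46 to 61.1 CPM in the knockout study, log2 fold changes of 3.40 (SE 0.47) and 2.75 (SE 0.43). The integrin chains Itgam and Itgb2 of Mac-1, through which SLAMF7 on macrophages is known to signal, and the adaptor chains Tyrobp and Fcer1g were also called higher in both, with Itgam at 3.82 (SE 0.61) in DN:HOM and 2.57 (SE 0.59) in KO:HOM. The 3 VPS34 complex genes Pik3c3, Becn1 and Uvrag, expressed in most cells, had 0 calls in either group by edgeR and by DESeq2, with 1 lower at an unadjusted p under 0.05 in DN:HOM and log2 fold changes between -0.20 and 0.05 in DN:HOM. Of the phosphatases, Ptpn6 (SHP-1) and Inpp5d (SHIP-1) of blood cells rose in both, while Ptpn11 (SHP-2), found in most cells, fell by 0.15 (SE 0.06) in DN:HOM by edgeR and was not called by DESeq2. With all 48 livers the log2 fold changes in DN:HOM were 2.47 for Sh2d1b1, 2.01 for Cybb (edgeR adjusted p = 0.0030) and 2.06 for Itgam (adjusted p = 0.0080). Ptpn11 at -0.10 (adjusted p = 0.15) was then no longer called. The part of leukocyte content in the differences of these signalling genes was not tested.

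**Figure D4:**
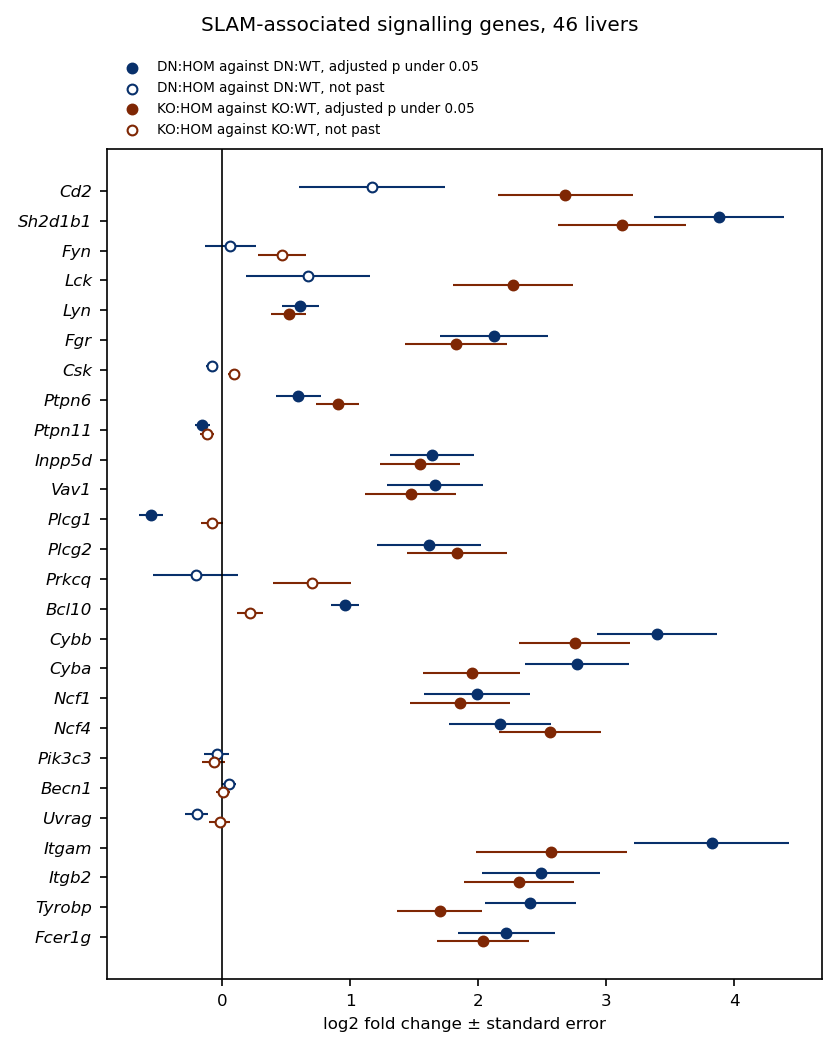
Log2 fold change (horizontal axis) of the 26 tested signalling genes in DN:HOM (blue) and KO:HOM (brown) livers against wild-type livers of the same study, with bars of 1 standard error. Filled circles passed an adjusted p under 0.05 and open circles did not, and Cybb, Itgam and Sh2d1b1 lie farthest to the right in DN:HOM. Sh2d1b1 passed the filter on low counts through the homozygous livers, so nothing is read from its filled circles.

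The difference between the homozygous effects was called for 3 of the 26 tested genes of the list, a smaller share than the 34.7% of all genes. Bcl10, an effector of antigen-receptor signalling, rose in DN:HOM by 0.96 (SE 0.11), with 0.22 (SE 0.10) in KO:HOM and a difference of 0.74 (SE 0.15, adjusted p = 1.09e-04). Plcg1, the phospholipase of many cell types, fell by 0.55 (SE 0.09) in DN:HOM, with -0.08 (SE 0.09) in KO:HOM and a difference of -0.48 (SE 0.13, adjusted p = 0.0030). The difference of Csk, an inhibitory kinase, was -0.17 (SE 0.06, adjusted p = 0.028). None of the 3 differences was called with all 48 livers, where the adjusted p was 0.24 for Bcl10, 0.14 for Plcg1 and 0.14 for Csk. In DN:HET 10 of the 26 tested genes rose, where 2.23% of all genes were called higher. Without animals 4 and 22 edgeR called 0 of them, with 1 at an unadjusted p under 0.05 and 0.0126% of all genes called. With all 48 livers edgeR also called 0, with 12 at an unadjusted p under 0.05 and 0.25% of all genes called higher. In KO:HET 0 of 26 were called by edgeR and 0 by DESeq2, with 2 at an unadjusted p under 0.05.

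The interval that holds the family also holds genes of other kinds. Of 40 other genes followed between the outermost members, 13 passed the filter. In DN:HOM 8 of these rose and 3 fell, where 29.1% of all genes were called higher and 30% lower. In KO:HOM 4 rose and 0 fell, also 0 by DESeq2 and 1 at an unadjusted p under 0.05, where 11.5% of all genes were called higher and 7.87% lower. Tagln2, an actin-binding protein whose gene lies between Slamf9 and Slamf8, rose by 3.29 (SE 0.31) in DN:HOM and by 0.90 (SE 0.28) in KO:HOM. Igsf9, from the same stretch, rose by 3.11 (SE 0.38) in DN:HOM and by 1.37 (SE 0.37) in KO:HOM. In DN:HOM Vangl2 rose by 1.97 (SE 0.36), Gm10521 by 1.59 (SE 0.48), Igsf8 by 1.51 (SE 0.20) and Pea15a by 1.43 (SE 0.14). Kcnj10, a potassium channel, rose by 2.55 (SE 0.46, adjusted p = 8.72e-05) in KO:HOM and by 1.09 (SE 0.48, adjusted p = 0.047) in DN:HOM, and the difference of -1.46 (SE 0.67, adjusted p = 0.087) was not called. Its value in DN:HOM with all 48 livers was 0.80 (adjusted p = 0.13). Copa, Pex19 and Dcaf8, which are used by most cells and lie between Slamf6 and Slamf9, fell by 0.29 (SE 0.05), 0.61 (SE 0.09) and 0.26 (SE 0.06) in DN:HOM. Ncstn, from the same stretch, rose by 0.26 (SE 0.05) in DN:HOM, and Pigm was at 0.03 (SE 0.08) and not called. With all 48 livers 7 of the 13 rose and 3 fell in DN:HOM, and Kcnj10 was the only one called in KO:HOM. Tagln2 was then at 2.06 in DN:HOM (edgeR adjusted p = 2.73e-04).

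**Figure D5:**
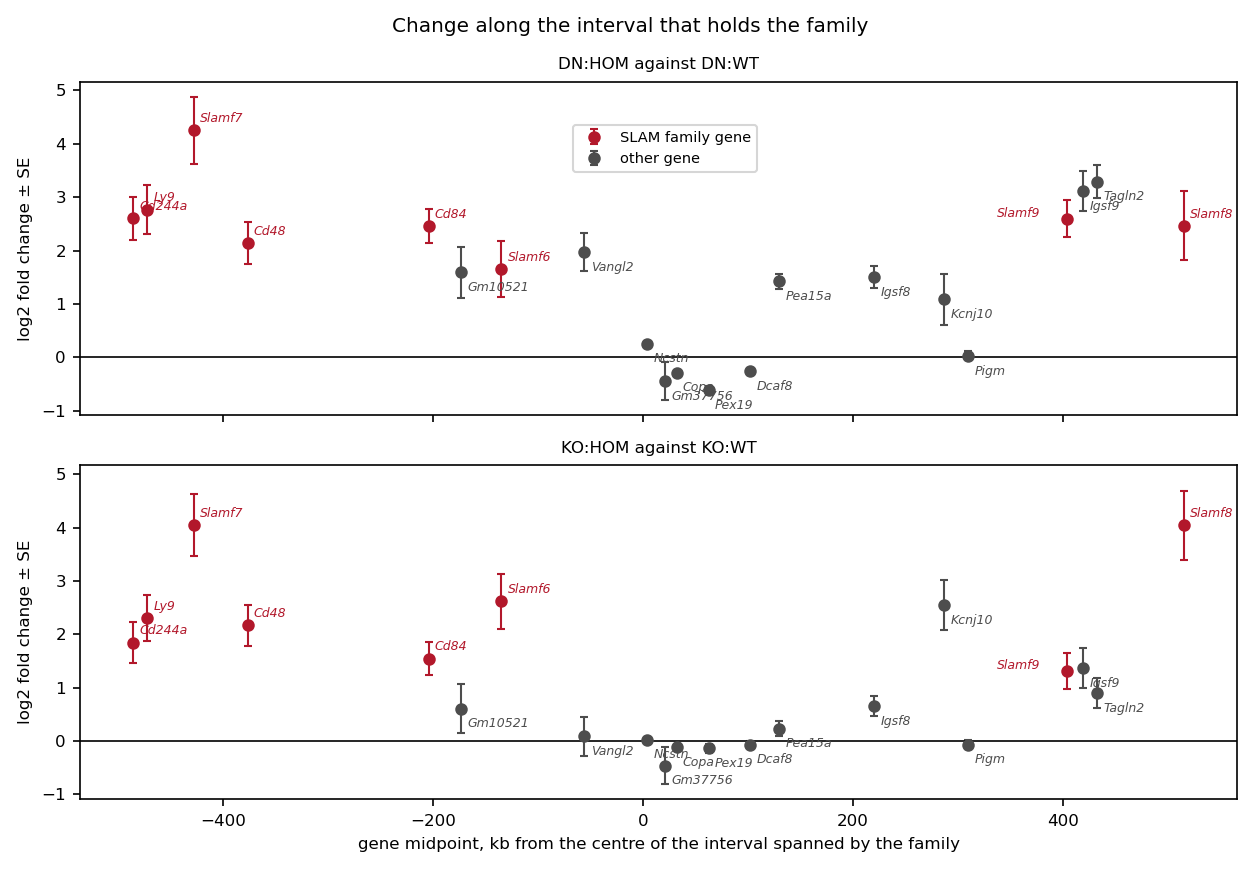
Log2 fold change (vertical axes, with bars of 1 standard error) of the 8 SLAM family genes (red) and 13 other tested genes (grey) by the distance of the gene's midpoint from the centre of the interval in kb, for DN:HOM (top) and KO:HOM livers (bottom). All 8 red points, chosen with these contrasts known, are above 0 in both panels. Of the 13 grey points 8 were called higher in DN:HOM, with Igsf9 and Tagln2 the highest. Copa, Pex19 and Dcaf8 in the middle lie below 0 in DN:HOM.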

How the data were processed

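Polyadenylated liver RNA was sequenced as stranded libraries. The authors aligned the reads with STAR 2.5.0a to GRCm39 and deposited raw counts of reads per gene, unstranded and by strand, without normalization. The strand holding 6.97 to 8.62 times the reads of the other was used, and reads naming no gene (24.0 to 35.0%) were left out. Symbols and positions came from a GENCODE annotation that held 98.8% of the identifiers, and promoters from RefSeq.

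The members and all lists were chosen with earlier results of these data known. Groups were taken from the labels. Counts of 46 livers were fitted with edgeR 4.0.16 (R 4.3.3, filterByExpr, TMM scaling, 6 group means, quasi-likelihood F test, Benjamini-Hochberg adjustment over all tested genes, threshold 0.05), and standard errors were taken from the fold change and its F statistic. CPM used TMM-scaled library sizes, and log2 CPM a prior count of 2. The fit was tested on simulated data, and the outcome is not given here. In livers with at least 10000000 reads 1 read is worth about 0.045 to 0.077 CPM, and up to 0.201 CPM in the 2 shallower livers, so values near it are imprecise.

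Named were the members, Nr1h3, genes of the signalling and marker lists, tested genes between the members, and the 3 genes most correlated with each member. The fits hold 3 genes of these lists that are not reported here. The alternatives were all 48 livers, DESeq2 1.42.0, unstranded counts, upper-quartile scaling, each study fitted alone, no filter, a filter at a mean of 1 CPM, and no liver under 10000000 reads. Library size alone, and leaving out DN:HET animals 4 and 22, were added after the data were seen. Each label is 1 mouse. Tables used Python 3.11.15 with pandas 2.3.3.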

Additional observations from a re-analysis of the deposited data

Results flagged for a closer look

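Several livers stood apart from the others of their label in a Dixon test of a group's highest or lowest value, which chance flags in about 1 in 20 groups, and 64 such groups were tested. With all labelled livers, DN:WT animal 10 was the highest of 8 for Cd244a (1.67 CPM), Ly9 (15.3), Slamf7 (9.82), Cd48 (10.02), Cd84 (25.9), Slamf6 (1.62), Slamf9 (4.40) and Slamf8 (5.97 CPM). DN:HOM animal 12 was the lowest of 8 for Cd244a (0.140 CPM), Slamf7 (0.42), Cd48 (1.82), Cd84 (4.13) and Slamf9 (0.490 CPM). These are the 2 livers whose Nr1h3 goes against the label.

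KO:HET animal 4 was the highest of its group for Slamf7 and for Slamf8, with 5.16 CPM of each, and KO:WT animal 14 was the highest of its group for Cd84 with 7.95 CPM. Whether chance gave these 3 flags was not tested, since the groups share livers and the members correlate across livers. DN:HET animals 4 and 22 passed no such test, since they were high together.

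The homozygous effects of the studies differed by edgeR's test in 3 of 26 tested signalling genes, below the 34.7% of all genes called for this difference, by -0.48 for Plcg1, 0.74 for Bcl10 and -0.17 for Csk on the log2 scale (DN minus KO). They differed in 7 of the 13 tested genes lying between the members, by 1.88 for Vangl2, 0.23 for Ncstn, -0.48 for Pex19, 1.19 for Pea15a, 0.85 for Igsf8, 1.74 for Igsf9 and 2.39 for Tagln2. With all 48 livers edgeR called 0 of these differences, with 5 of the tested genes between the members and 4 of the signalling genes at an unadjusted p under 0.05.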

How the results depend on the processing

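All 139 values of the members' homozygous fold changes under the alternatives stayed above 0. Counts of members called in either direction changed by more than 1.5 times in DN:HET and for the difference of the homozygous effects. In DN:HET they went from 4 to 0 with all 48 livers and to 0 without animals 4 and 22. Of all genes 361 of 15711, 39 of 15621 and 2 of 15849 were called in these fits, in this order. For the difference they went from 1 to 0 with all 48 livers or without the low-count filter, and to 2 with library size alone. Of all genes 5456 of 15711, 1636 of 15621, 5067 of 32766 and 7265 of 15711 were then called. Of the signalling list, 10 genes were called in DN:HET, 0 with all 48 livers and 0 without animals 4 and 22. DESeq2 called 15 of the list and 617 of all 15711 genes in DN:HET. With each study alone the calls were 6 of the list and 239 of all 15151 genes. For the difference 3 genes of the list were called, and 0 with all 48 livers. Of the genes between the members, 4 were called in KO:HOM and 1 with all 48 livers. Of all genes 3048 of 15711 and 2016 of 15621 were called there. In DN:HET 1 gene between the members was called and 0 without animals 4 and 22. For the difference 7 were called and 0 with all 48 livers. The fit of all 48 livers adds DN:WT animal 10 and DN:HOM animal 12 to the main fit. The other fits changed the livers, the genes, the scaling or the tool. Beyond that the cause was not tested.

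Scaling by library size alone moved the median of all genes in DN:HOM from -0.01 to 0.42 and the members' median from 2.53 to 2.96 on the log2 scale. With 19 of their 40 fold changes, all 48 livers moved the members by more than the spread between replicates, against 4 of 40 for library size alone, 2 of 8 without DN:HET animals 4 and 22, and 0 under the other alternatives. A minimum mean CPM of 1 left out Cd244a and Slamf6, so it gave no value for them, and Cd244a did not pass the filter with the knockout study fitted alone. The correlation of Slamf9 with Lgals3 went from 0.85 to 0.92 with all 48 livers. No paired analysis was possible because the labels give animal numbers that are not shared between groups as pairs, and the replicate numbers only name the livers.

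Depth limits Slamf6 and Cd244a most, with medians under 1 CPM in all groups but the homozygous ones. It also limits the wild-type levels of Slamf7, with medians of 0.428 CPM in DN:WT and 0.623 CPM in KO:WT, and of Slamf8 in KO:WT, at 0.578 CPM.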
